A study of Mus musculus with 27 samples.

Results

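Polyadenylated RNA bound to chromatin was compared with polyadenylated RNA of the cytoplasm in mNPC, a mouse cell line that the labels give as neuronal progenitors. The comparison rests on 6 of the 27 libraries of the study, 3 from the chromatin fraction and 3 from the cytoplasmic fraction of these cells, and the libraries were chosen by their labels alone. The mNPC line was established by the submitters and grown in DMEM/F12 with B27 lacking vitamin A, with EGF and FGF added daily at 10.0 ng/ml, and no allele or drug sets the fractions apart. The replicates are biological triplicates per the labels. Being a single line, it gives no measure of the variation between progenitor lines. RNA longer than 200 nt was kept, captured on oligo-dT and sequenced from both ends (100 bp each) with strand preserved. Points of comparison below are the third fraction of the mNPC cells, the soluble nucleoplasm, and the chromatin and cytoplasm of mESC, the embryonic stem cell line E14 grown on gelatin in LIF, and of mCtx, cortical neurons taken from the animal and cultured for 5 days.

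Pre-mRNA is spliced, cleaved and polyadenylated while still close to the gene, and a finished mRNA is released from chromatin, passes through the nucleoplasm and is exported to be translated. Polyadenylated RNA that stays with chromatin includes noncoding RNAs that act there and transcripts whose splicing is incomplete, such as those with detained introns, which are common in genes of the splicing machinery itself. Neural progenitors are cycling cells that depend on Notch, EGF and FGF signals, and they transcribe many neuronal and glial genes before they differentiate.

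The mNPC chromatin libraries held 16417411, 17278544 and 12073063 counts, and the cytoplasm libraries 23608781, 18336501 and 13725712. Replicates of a fraction were alike, with Pearson's r of log2 levels across 11246 genes of 0.9872 to 0.9918 in chromatin and 0.9844 to 0.9900 in cytoplasm. Levels are given as CPM, counts scaled to the same library size, so each is relative to the RNA of its own fraction. A lower amount of RNA per cell and a lower share of that RNA cannot be told apart. Whole genes were counted, introns included, so spliced and unspliced RNA enter the same value. TPM values, which the authors deposited beside the counts, are given as a second measure.

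Chromatin and cytoplasm of mNPC held widely different RNA. Of 18226 genes tested, 5018 (27.5%) were called higher and 3886 (21.3%) lower in chromatin, by edgeR's quasi-likelihood test at a Benjamini-Hochberg adjusted p under 0.05 and a log2 fold change of at least 1 in size. Of the 8904 called genes, 8779 had all 3 libraries of one fraction above all 3 of the other, which was also so for 72.3% of all genes tested. With library totals in place of TMM scaling the split was 6124 higher and 3085 lower, and the median log2 fold change of all genes moved from 0.12 to 0.43. In log2(TPM + 1), over 24419 genes, 41.0% were called higher and 8.50% lower, so 82.8% of the calls were on the chromatin side, against 56.4% here. The median difference on that scale was 0.70 over 13053 genes, so values in log2(TPM + 1) below are to be read against it. A log2 fold change of 3 was passed by 1329 genes in chromatin and by 717 in cytoplasm. Lists are described over the 13513 genes with a mean of at least 1 CPM in the 6 libraries, of which 3834 (28.4%) were called higher and 3465 (25.6%) lower, with a median of 0.07 on the log2 scale.

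The libraries carried the genes that mark neural progenitors. Summed over 39 such markers, chromatin held 11178 to 11511 CPM and cytoplasm 13337 to 13802. Markers of pluripotent, microglial and endothelial cells were low, and those of neurons and glia were not. The sum over 20 pluripotency markers was 9.09 to 11.3 CPM in chromatin and 14.9 to 17.7 in cytoplasm, over 12 microglia markers 67.2 to 78.6 and 53.3 to 63.0, and over 13 endothelial and mural markers 4.89 to 5.56 and 2.20 to 3.13. The sum over 24 neuron markers was 1147 to 1309 CPM in chromatin and 874 to 1045 in cytoplasm. Most of that sum came from Map2, a microtubule-associated protein, with 1080, 1181 and 1004 CPM in chromatin and 727, 784 and 649 in cytoplasm. Astrocyte and oligodendrocyte lineage markers had sums of 2562 to 2938 and 1224 to 1337 CPM in chromatin and 3271 to 3870 and 3511 to 3802 in cytoplasm, and both lists share genes with the progenitor list. No measured member of these marker lists was at 0 counts in a whole fraction.

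Among genes that met the naming rule (at least 10 CPM, no same-strand overlap, a span of at least 200 bases), Xist and Malat1 had the largest log2 fold changes. Xist (ENSMUSG00000086503, mm10 chromosome X, 103460375 to 103483217, minus strand), the noncoding RNA that coats the inactive X chromosome, had 5237, 6244 and 6183 CPM in the chromatin libraries and 80.1, 77.4 and 59.6 CPM in the cytoplasm libraries. The groups were far apart, and the log2 fold change was 6.34 ± 0.73 (SE; adjusted p = 5.7e-08), or 7.29 in log2(TPM + 1). Malat1 (ENSMUSG00000092341, chromosome 19, 5795690 to 5802671, minus strand), a noncoding RNA of nuclear speckles, had 3723, 3990 and 5032 CPM in chromatin and 62.8, 58.3 and 60.7 in cytoplasm, a log2 fold change of 6.13 ± 0.25 (SE; adjusted p = 7.8e-17). In the nucleoplasm the means were 95.4 ± 28.0 CPM for Xist and 290 ± 63.9 for Malat1 (SD, n = 3), nearer to the cytoplasm than to chromatin. Together the 2 RNAs took 1.24% ± 0.150 of all chromatin counts and 0.0131% ± 0.00119 of cytoplasm counts (SD, n = 3), a ratio of 95.0. All 3 chromatin libraries lay above all 3 cytoplasm libraries, and the two-sided exact permutation p was 0.100, the smallest that 3 against 3 can give.

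Of 10 nuclear noncoding RNAs measured, 8 were called higher in chromatin, none was lower, and the median log2 fold change was 3.07. Firre, an X-linked noncoding RNA, had 312, 248 and 267 CPM in chromatin and 20.4, 14.0 and 17.7 in cytoplasm, a log2 fold change of 3.99 ± 0.23 (SE; adjusted p = 4.6e-14). Every chromatin library was above every cytoplasm library. Airn, the imprinted antisense RNA of Igf2r, rose by 3.18, Ftx, a neighbour of Xist, by 2.97 and Neat1, the scaffold of paraspeckles, by 2.86. Meg3, an imprinted RNA, had a log2 fold change of 5.08 ± 0.74 from low levels, with 3.67, 2.78 and 1.47 CPM in chromatin and 0.0861, 0.110 and 0 in cytoplasm. The exceptions were Tug1, with 132, 148 and 136 CPM in chromatin and 124, 123 and 109 in cytoplasm, and 1700020I14Rik. Tug1 had a log2 fold change of 0.22 ± 0.15 (SE; adjusted p = 0.198), and its value in log2(TPM + 1) was 1.32.

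The host genes of small nucleolar RNAs were mixed, with 4 of 9 higher, 1 lower and a median of 0.87. Over all measured genes the shares were 28.4% higher and 25.6% lower. Snhg11 had 106, 87.4 and 83.8 CPM in chromatin and 2.63, 2.86 and 2.61 in cytoplasm, a log2 fold change of 5.09 ± 0.21 (SE; adjusted p = 5.8e-17). Its span overlaps another counted gene on the same strand, and how reads were divided there was not tested. Gas5, whose snoRNAs lie in its introns, had 376, 342 and 289 CPM in chromatin and 230, 230 and 248 in cytoplasm. Its log2 fold change of 0.51 ± 0.17 was under the minimum for a call, although the libraries did not overlap. Zfas1 had a log2 fold change of -1.02 ± 0.33 (SE; adjusted p = 0.00774), a call that was lost without the third chromatin library (-0.88 at the nearest to 0) or the first cytoplasm library.

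Genes with the machinery of nuclear speckles and splicing kinases were higher in chromatin as a list. Of 25 genes for CLK kinases, SR protein kinases and speckle scaffolds, 21 were called higher and none lower, against 28.4% and 25.6% of all measured genes, with a median log2 fold change of 2.47 (3.59 in log2(TPM + 1)). Pnisr (ENSMUSG00000028248, chromosome 4, 21847583 to 21876475, plus strand), an arginine- and serine-rich speckle protein, had 1384, 1490 and 1469 CPM in chromatin and 47.4, 50.7 and 46.4 in cytoplasm. The libraries of each fraction were tightly grouped, and the log2 fold change was 4.91 ± 0.20 (SE; adjusted p = 8.0e-17). Srrm2, a scaffold of speckles, had 2133, 2295 and 2897 CPM in chromatin and 228, 186 and 138 in cytoplasm, and its log2 fold change was 3.73 ± 0.26 (SE; adjusted p = 1.3e-12). The second scaffold, Son, had 1271, 1378 and 1397 CPM in chromatin against 221, 207 and 129, a log2 fold change of 2.86 ± 0.19 (SE). The CLK kinases, which phosphorylate SR proteins, rose by 3.59 (Clk1), 2.41 (Clk2), 1.62 (Clk3) and 3.44 (Clk4), and the cyclins of splicing kinases, Ccnl1 and Ccnl2, by 3.88 and 3.60. The 4 members that were not called were Cdk11b, Thrap3, Srpk2 and Dyrk1a, with log2 fold changes of 0.65, 0.55, 0.40 and 0.06.

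SR proteins, hnRNP proteins and core spliceosome subunits were divided. Among 13 SR proteins, which bind exons and promote splicing, 6 rose and 2 fell, with a median of 0.79. The shares over all measured genes were 28.4% higher and 25.6% lower. Srsf5 had 1035, 986 and 896 CPM in chromatin and 246, 238 and 232 in cytoplasm, a log2 fold change of 2.03 ± 0.14 (SE; adjusted p = 2.0e-12), and Tra2a rose by 2.35. Srsf9 fell by 1.73 on the log2 scale, from 87.3, 98.0 and 99.3 CPM in cytoplasm to 29.8, 28.3 and 27.7 in chromatin. Srsf1 had a log2 fold change of 1.04 ± 0.18 and lost its call without the first cytoplasm library (0.96).

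Of 26 hnRNP genes 4 rose, 12 fell and 10 were not called, against 28.4% higher and 25.6% lower over all measured genes. The median was -0.93 on counts and 0.05 in log2(TPM + 1). Hnrnph1, which binds G-rich RNA, had 1099, 1065 and 1045 CPM in chromatin and 279, 283 and 234 in cytoplasm (log2 fold change 2.01 ± 0.16, SE), and Ptbp2, the neural paralog of the splicing repressor Ptbp1, rose by 2.18. On the other side, Hnrnpab had 50.4, 48.5 and 49.3 CPM in chromatin and 412, 489 and 462 in cytoplasm, a log2 fold change of -3.20 ± 0.21 (SE; adjusted p = 2.7e-13). Hnrnpa2b1, with 1866, 1666 and 1695 CPM against 1403, 1667 and 1355, overlapped between the fractions at 0.24 ± 0.15 (SE; adjusted p = 0.158). Of 36 core snRNP genes 2 rose and 20 fell, with a median of -1.44. The 2 were Snrnp70, of the U1 particle, and Sf3b1, of the U2 particle, both at 2.51. The Sm proteins Snrpd1, Snrpd2, Snrpd3, Snrpe, Snrpf and Snrpg all fell, by 2.11 to 3.95 on the log2 scale, with Snrpd2 lowest.

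**Figure D1:**
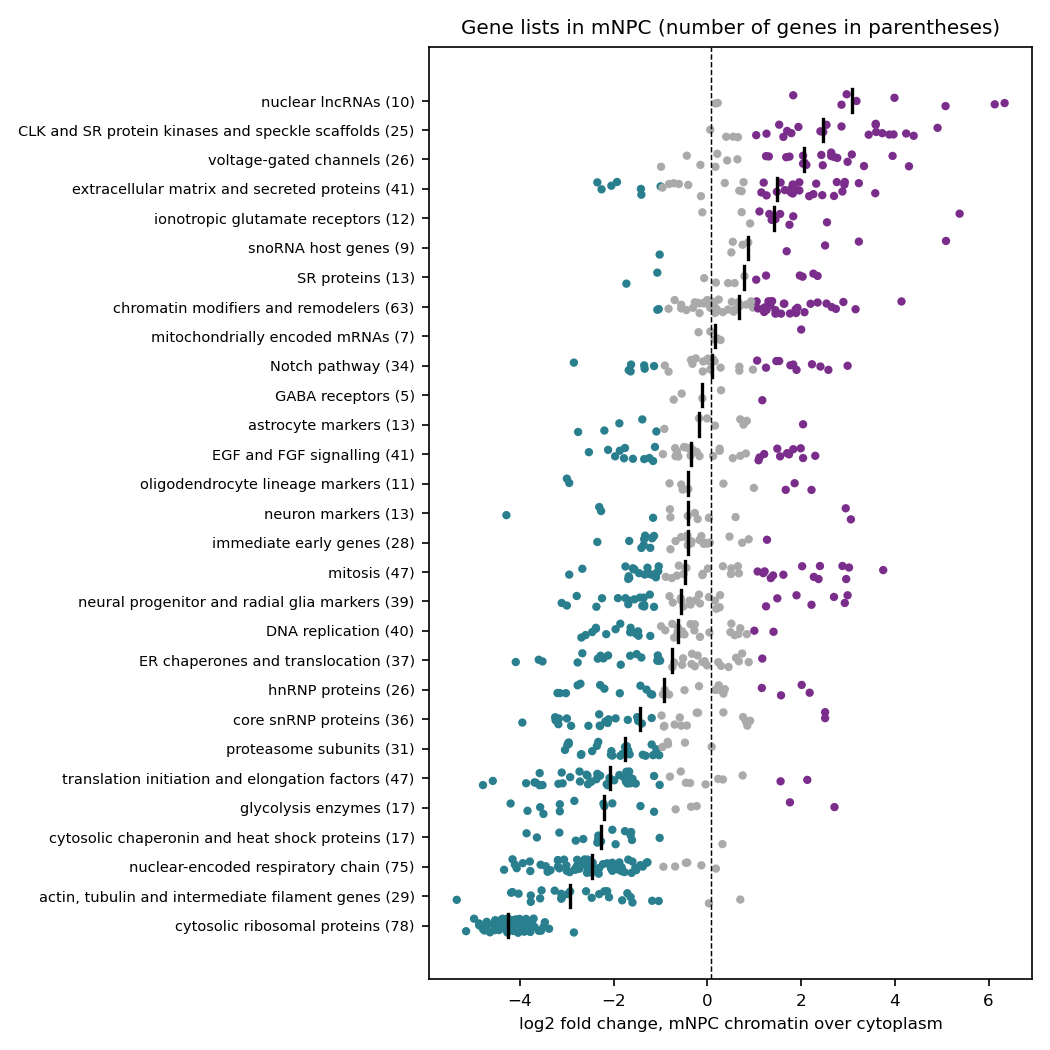
Log2 fold change of chromatin over cytoplasm in mNPC for each measured gene of 29 lists, with the number of genes in parentheses. Each point is a gene, purple where called higher, teal where called lower and grey where not called, the black bar is the list's median and the dashed line the median of all measured genes (0.07). Cytosolic ribosomal proteins lie wholly on the cytoplasm side, CLK kinases and speckle scaffolds lie almost wholly on the chromatin side, and the Notch, EGF and FGF, mitosis and progenitor lists spread to both sides.

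The largest rises outside these lists belonged to genes of varied roles. Besides Xist, Malat1 and Pnisr, the 15 largest rises that met the naming rule were Fam228a, AI480526, Cd46, Dcdc2b, Arl9, Ttc14, Zfc3h1, Cfap44, Naaladl1, Lgals4, Zfp40 and Nsun7, with log2 fold changes between 4.42 and 5.59. Zfc3h1, which links polyadenylated nuclear RNA to the exosome, had 283, 314 and 306 CPM in chromatin and a mean of 13.1 ± 4.45 (SD, n = 3) in cytoplasm, a log2 fold change of 4.51 ± 0.23 (SE; adjusted p = 2.6e-15). Ttc14, a tetratricopeptide repeat protein, had 415, 431 and 388 CPM in chromatin and 18.1, 19.3 and 14.8 in cytoplasm, a log2 fold change of 4.56 ± 0.20. Zfp40, a zinc finger protein, had 179, 194 and 165 CPM against 9.04, 8.76 and 6.63. In each of these genes the lowest chromatin library stood many times above the highest cytoplasm library. Cd46, a regulator of complement, had 17.4, 20.9 and 21.5 CPM in chromatin and 0.646, 0.441 and 0.298 in cytoplasm, and Lgals4, a galectin of the gut, 21.7, 15.6 and 15.4 against 0.990, 0.551 and 0.820.

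Genes of neuronal membranes were also higher in mNPC chromatin than in cytoplasm, although 10 of the 12 glutamate receptors had their highest level in the nucleoplasm. Of 12 ionotropic glutamate receptor genes measured, 9 rose and none fell (median 1.41), and of 26 voltage-gated channel genes 19 rose and none fell (median 2.06). For these and the lists below, the shares over all measured genes were 28.4% higher and 25.6% lower. Gria2 (ENSMUSG00000033981, chromosome 3, 80684936 to 80802791, minus strand), an AMPA receptor subunit, had 707, 825 and 754 CPM in chromatin and a mean of 18.3 ± 3.01 (SD, n = 3) in cytoplasm. The fractions did not come near each other, and the log2 fold change was 5.38 ± 0.18 (SE; adjusted p = 2.2e-17). Gria2 overlaps another counted gene on its strand, so it did not meet the naming rule for the largest rises. How reads were divided between them was not tested. The kainate receptor subunit Grik5 had 207, 220 and 249 CPM against 89.3, 74.6 and 83.5, a log2 fold change of 1.45 ± 0.18 (SE). Cacna2d1, an auxiliary calcium channel subunit, had 233, 273 and 257 CPM in chromatin and 38.6, 36.7 and 36.2 in cytoplasm, a log2 fold change of 2.77 ± 0.21 (SE; adjusted p = 8.5e-12). Cacna1e, a calcium channel pore, had the highest ratio of its list at 4.30 ± 0.73, from 3.16, 2.50 and 2.21 CPM against 0.129, 0.110 and 0.149. Of 13 neuron markers 2 rose, Gad1, which makes GABA, by 3.06 and Snap25, a synaptic fusion protein, by 2.95, and 4 fell. The median of the list was -0.42 on counts and 0.09 in log2(TPM + 1). Gap43, a growth cone protein, fell by 4.29 on the log2 scale, from 58.8, 87.7 and 73.0 CPM in cytoplasm to 4.12, 4.01 and 3.02 in chromatin. Of 5 GABA receptor genes measured 1 was called, Gabbr1, a GABA-B receptor subunit, with 399, 340 and 395 CPM in chromatin and 188, 146 and 171 in cytoplasm (1.17 ± 0.16, SE).

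Chromatin modifiers and remodelers leaned to chromatin, with 27 of 63 higher, 2 lower and a median of 0.67. Over all measured genes 28.4% were called higher and 25.6% lower. Atrx, a remodeler that deposits histone H3.3 at repeats, had 579, 767 and 704 CPM in chromatin and 42.6, 48.6 and 24.8 in cytoplasm, a log2 fold change of 4.14 ± 0.29 (SE; adjusted p = 1.0e-12). No library of one fraction reached the other. The chromodomain remodeler Chd7 had 484, 495 and 488 CPM against 178, 140 and 79.9 (1.88 ± 0.21, SE). The H3K4 methyltransferases Kmt2a, Kmt2b, Kmt2c and Kmt2d rose by 2.54, 2.07, 2.65 and 2.74. Of the other Kmt2 and Setd1 genes listed, Setd1a rose by 1.34, and Kmt2e (0.69) and Setd1b (-0.56) were not called. Chd4, at 1.05 ± 0.22, was under the minimum without the third chromatin library or the third cytoplasm library (0.87 at the lowest). Smarcc1, a subunit of the BAF complex, had a log2 fold change of -1.07 ± 0.21, lost its call without the first or the second cytoplasm library (-0.94 at the nearest to 0) and had 0.16 in log2(TPM + 1).

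Exon number went with the side a transcript was on. Among 12386 protein-coding genes measured, Spearman's rho with the log2 fold change was 0.41 for the number of exons of the longest annotated transcript, 0.34 for its length and 0.27 for the genomic span. These are correlations across genes of one set of libraries, given as a description. Of 658 genes with 1 exon, 17.3% were called higher and 43.0% lower in chromatin. Of 2213 genes with 13 to 20 exons the shares were 34.6% and 9.62%, and of 234 genes with over 40 exons 77.4% and 0.427%. Within transcripts of 2000 to 4000 bases the median log2 fold change was -0.59 with up to 5 exons, -0.13 with 6 to 12 and 0.50 with 13 or more. Genes with over 20 exons took 21.8%, 22.6% and 23.1% of counts in the chromatin libraries and 10.5%, 9.57% and 7.69% in the cytoplasm libraries. Genes with 1 to 3 exons took 12.5% ± 0.326 and 20.2% ± 0.871 (SD, n = 3). Exact permutation p was 0.100 in both cases, the smallest possible.

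**Figure D2:**
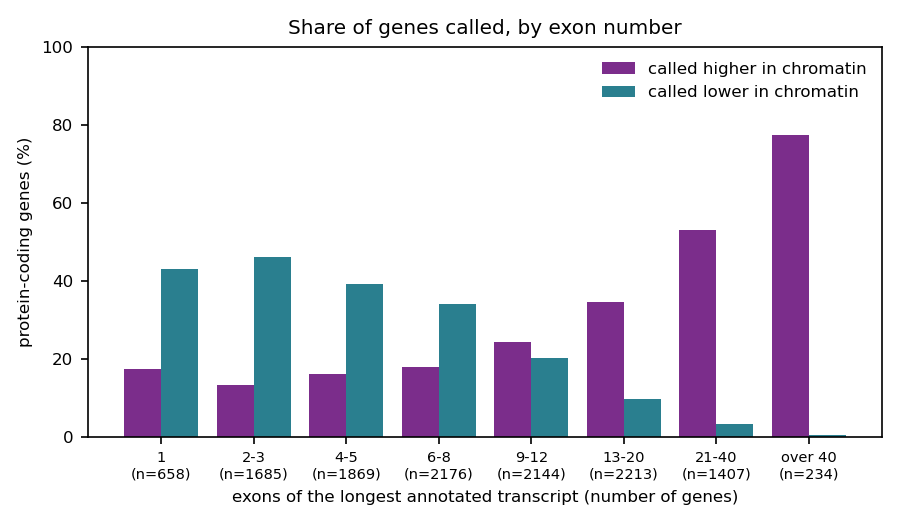
Share of measured protein-coding genes called higher (purple) or lower (teal) in mNPC chromatin than in cytoplasm, in percent, by the number of exons of the longest annotated transcript, with the number of genes under each pair of bars. The share called higher goes from 17.3% with 1 exon to 77.4% with over 40, and the share called lower from 43.0% to 0.427%.

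Noncoding and short loci differed from protein-coding genes. Of 96 lincRNA genes 58 were called higher and 8 lower (median 1.69), and of 188 antisense genes 120 and 14 (median 1.57), against 3236 and 3222 of 12386 protein-coding genes (median 0.02). Long noncoding RNA genes took 2.50% ± 0.107 of chromatin counts and 0.487% ± 0.00669 of cytoplasm counts (SD, n = 3), a ratio of 5.13 with an exact permutation p of 0.100. Without Xist and Malat1 these shares were 1.25% ± 0.0457 and 0.474% ± 0.00585, a ratio of 2.65. Of 127 snoRNA loci 117 were called higher and none lower (median 3.75), but 103 of them lie inside another gene on the same strand, and the loci are shorter than the RNA selected, so reads of a snoRNA and of its host cannot be told apart. Of 135 processed pseudogenes 116 were called lower, and how reads were divided between them and their parent genes was not tested.

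The cytoplasm side was led by the translation machinery. All 78 cytosolic ribosomal protein genes measured were called lower in chromatin, against 25.6% of all measured genes, with a median of -4.26 (-3.27 in log2(TPM + 1)) and a range of -5.15 to -2.85. Rpl32 (ENSMUSG00000057841, chromosome 6, 115805505 to 115808747, minus strand), a protein of the large subunit, had 44.2, 36.1 and 30.4 CPM in chromatin and 1173, 1249 and 1524 in cytoplasm, a log2 fold change of -5.15 ± 0.19 (SE; adjusted p = 2.1e-17). Rps23, of the small subunit, had 42.9, 34.3 and 31.5 CPM against 1016, 1153 and 1268, a log2 fold change of -4.98 ± 0.16. In both genes the fractions were separated by more than an order of magnitude. Rpsa, a small subunit protein, had -4.87 ± 0.17, and Rplp0, of the ribosomal stalk, -4.44 ± 0.18. Rpl32 and Rpsa each overlap another counted gene on their strand, so neither met the naming rule for the largest falls. How reads were divided in those spans was not tested. The list took 0.691%, 0.567% and 0.514% of counts in the chromatin libraries and 7.74%, 8.46% and 9.68% in the cytoplasm libraries. That is a ratio of 0.0685 of the means, with an exact permutation p of 0.100. Reads that processed pseudogenes of these genes may take were not measured. Of the 15 largest falls that met the naming rule, 12 were ribosomal protein genes, and the others were Tmsb10, S100a11 and Dctpp1. S100a11, a calcium-binding protein, had 0.703, 0.613 and 1.07 CPM in chromatin and 17.9, 22.1 and 21.5 in cytoplasm, a log2 fold change of -4.71 ± 0.32 (SE).

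Translation factors followed, with 37 of 47 lower, 2 higher and a median of -2.09. Eef1a1 (ENSMUSG00000037742, chromosome 9, 78478449 to 78489151, minus strand), which brings aminoacyl-tRNA to the ribosome, had 693, 520 and 500 CPM in chromatin and 14408, 15426 and 17700 in cytoplasm. The cytoplasm libraries were all far higher, and the log2 fold change was -4.79 ± 0.18 (SE; adjusted p = 1.7e-17). The span counted for Eef1a1 overlaps another counted gene on its strand, and how reads were divided there was not tested. Eef2, the translocation factor, had -3.87 ± 0.16 and Tpt1, a translationally controlled protein, -4.58 ± 0.16. The 2 that rose were initiation factors, Eif4g3 by 2.13, from 73.9, 69.0 and 52.9 CPM in cytoplasm to 270, 276 and 312 in chromatin, and Eif4a2 by 1.56.

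The mRNAs of ribosomal proteins and elongation factors are known for starting at a C within a run of pyrimidines, the 5′ terminal oligopyrimidine tract through which growth signals regulate their translation. The annotated starts of 4 of them are shown with a run of pyrimidines marked. The first marked base lies at -5 from the annotated start in Eef1a1, -4 in Rpl31, -1 in Rps6 and -8 in Rpl14. In each the run thus begins before that start, and whether it is the tract of the mRNA was not tested. The 4 genes were picked as the translation genes lowest in chromatin among those with such a run at the annotated start. Several genes further to the cytoplasm side, Rpl32, Rps23 and Rpsa among them, are not shown. Each window holds 30 bases around the RefSeq start in GRCm38.p6, 5′ to 3′ on the transcribed strand, with the matching run in capitals.
Eef1a1, chr9:78481710-78481739, minus strand: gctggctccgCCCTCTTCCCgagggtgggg
Rpl31, chr1:39367836-39367865, plus strand: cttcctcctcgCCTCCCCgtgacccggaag
Rps6, chr4:86857353-86857382, minus strand: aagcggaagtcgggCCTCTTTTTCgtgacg
Rpl14, chr9:120571502-120571531, plus strand: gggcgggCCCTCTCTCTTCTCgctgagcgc

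A tract was counted as a run of at least 7 C or T that begins with C on the transcribed strand, with those 7 bases within 10 bases before to 12 bases after the annotated start. It was present in 25 of 58 ribosomal protein genes with a promoter in the RefSeq table (43.1%) and in 7 of 37 translation factors (18.9%). Over all 27025 genes in the table the share was 11.7%, and it was 12.7% of 63 respiratory chain genes, 9.09% of 22 CLK kinase and speckle scaffold genes and 22.2% of 45 chromatin modifiers. A match describes the letters of the window and is no measurement of the start used in these cells. The log2 fold changes of the other 3 genes shown were -4.70 ± 0.21 for Rpl31, -4.54 ± 0.16 for Rps6 and -4.46 ± 0.15 for Rpl14.

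**Figure D3:**
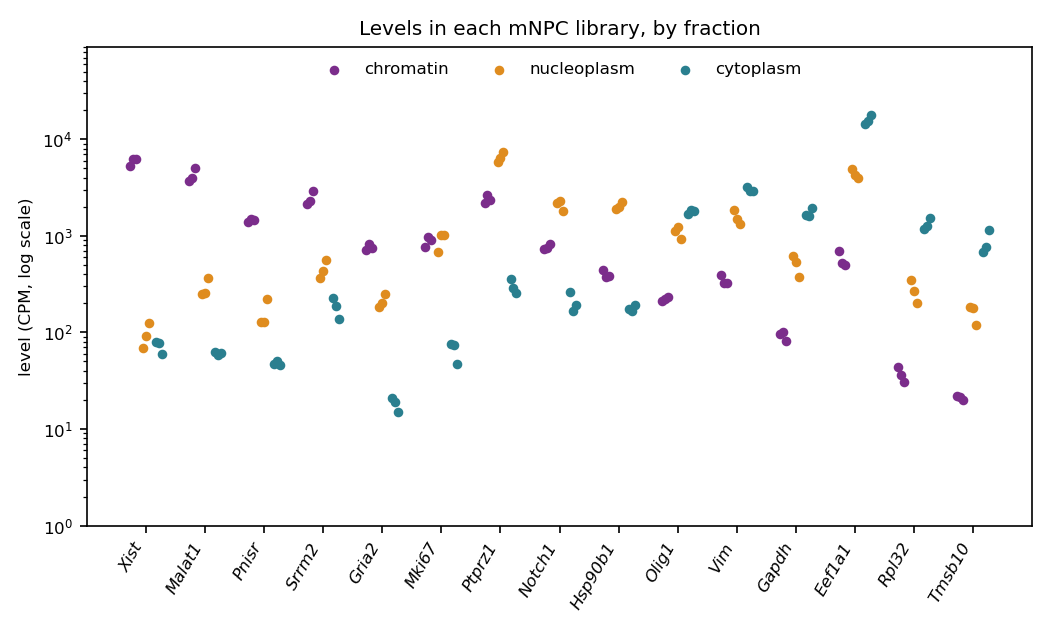
Level in CPM (log axis) of 15 genes in each mNPC library, with 3 points per fraction for chromatin (purple), nucleoplasm (orange) and cytoplasm (teal). Xist, Malat1, Pnisr, Srrm2 and Gria2 fall from chromatin to the other fractions, Ptprz1, Notch1 and Hsp90b1 have their highest points in the nucleoplasm, and Olig1, Vim, Gapdh, Eef1a1, Rpl32 and Tmsb10 rise stepwise to the cytoplasm.

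Genes of energy supply, protein quality control and the cytoskeleton were lower in chromatin almost as uniformly. Of 75 nuclear-encoded respiratory chain genes 69 fell and none rose (median -2.47), of 31 proteasome subunits 26 and none (median -1.76), of 17 cytosolic chaperonin and heat shock genes 16 and none (median -2.27), and of 29 actin, tubulin and intermediate filament genes 27 and none (median -2.93). Tmsb10, a thymosin that binds actin monomers, had the largest fall, with 21.9, 21.4 and 20.2 CPM in chromatin and 679, 760 and 1149 in cytoplasm (log2 fold change -5.35 ± 0.28, SE; adjusted p = 5.1e-15). Hsp90ab1, the cytosolic HSP90, had 254, 221 and 218 CPM against 3334, 3394 and 3322, a log2 fold change of -3.86 ± 0.19. Atp5k, a small subunit of the ATP synthase, had the lowest value of the 75 respiratory genes at -4.34 ± 0.19. Of 17 glycolysis enzymes 12 fell and 2 rose. Gapdh had 96.9, 101 and 82.2 CPM in chromatin and 1624, 1586 and 1948 in cytoplasm, a log2 fold change of -4.20 ± 0.21 (SE; adjusted p = 3.1e-15). Eno2, the neuronal enolase, went the other way at 2.71 ± 0.20, with 14.5, 15.2 and 15.8 CPM against 2.63, 1.76 and 2.53, as did Pfkp, a phosphofructokinase, at 1.76.

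Markers of progenitor identity were on both sides. Of 39 markers 7 rose, 17 fell and 15 were not called (median -0.57, and 0.08 in log2(TPM + 1)). Of all measured genes 28.4% were called higher and 25.6% lower. The 7 that rose were Ptprz1, Tnc, Bcan, Cspg4, Notch1, Egfr and Prom1, which as background all encode membrane or matrix proteins. Ptprz1 (ENSMUSG00000068748, chromosome 6, 22875502 to 23052916, plus strand), a receptor phosphatase of radial glia, had 2172, 2646 and 2344 CPM in chromatin and 361, 286 and 257 in cytoplasm, a log2 fold change of 2.99 ± 0.17 (SE; adjusted p = 2.4e-14). Its nucleoplasm mean, 6522 ± 744 CPM (SD, n = 3), was above both. Bcan, the matrix proteoglycan brevican, had 2486, 1931 and 2695 CPM against 446, 268 and 382, a log2 fold change of 2.70 ± 0.24.

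Those that fell included the transcription regulators Olig1, Sox3, Sox1, Sox2 and Sox9 and, of the Id proteins, Id1, Id2 and Id3. They also included a membrane protein, Cd9, at -1.91. Other regulators were not called, among them Pax6 at 0.26, Pou3f2 at 0.27, Nr2e1 at -0.56 and Id4 at -0.16. Olig1 had 213, 220 and 234 CPM in chromatin and 1694, 1840 and 1805 in cytoplasm, with a log2 fold change between -3.04 and -2.97 when any 1 library was left out (adjusted p = 1.4e-15 with all libraries). Its neighbour and paralog Olig2 had 500, 458 and 559 CPM against 905, 806 and 960, and its -0.81 ± 0.15 was under the minimum for a call, although the libraries did not overlap. Vim, the intermediate filament vimentin, had 395, 322 and 323 CPM in chromatin and 3167, 2880 and 2908 in cytoplasm, a log2 fold change of -3.11 ± 0.14 (SE; adjusted p = 5.5e-16). Sox2, a pluripotency and progenitor factor, had -1.68 ± 0.12. Slc1a3, a glial glutamate transporter, and Nes, the filament nestin, overlapped between the fractions, at 0.16 ± 0.18 and 0.03 ± 0.28.

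The Notch pathway, which keeps progenitors undifferentiated by contact between neighbours, showed shares of calls near those of all measured genes. Of 34 genes measured 11 rose, 7 fell and 16 were not called, and the median of 0.09 was near the 0.07 of all measured genes. The values by role are given as a description. All 5 ligands measured rose, Jag2 by 2.99, Jag1 by 2.58, Dll1 by 2.41, Dll3 by 1.83 and Dll4 by 1.47. So did the receptors Notch1, Notch2 and Notch3, by 1.90, 2.23 and 1.77. Dll1 had 811, 736 and 654 CPM in chromatin and 172, 113 and 128 in cytoplasm, and Notch1 had 731, 746 and 831 against 263, 166 and 191. In both the chromatin libraries were all higher. Of the gamma-secretase, which releases the receptor's intracellular part, the large subunit Ncstn rose by 1.06, Psen2 was not called, at 0.97, and the small subunits Aph1a and Psenen fell by 1.68 and 2.85. Psenen had 9.09, 7.02 and 5.96 CPM in chromatin and 49.5, 52.7 and 58.3 in cytoplasm. The targets Hes5, Hey1, Heyl and Nrarp fell by 1.14, 1.63, 1.64 and 1.35, and Hes1 was not called at -0.25. Hes5 lost its call without the third chromatin library (-0.99), and its value was 0.10 in log2(TPM + 1).

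EGF and FGF signalling, the pathway of the growth factors in the medium, showed about the same shares of calls as all measured genes (28.4% higher, 25.6% lower). Of 41 genes 11 rose, 11 fell and 19 were not called (median -0.36, and 0.88 in log2(TPM + 1)), and the values are given by role as a description. At the membrane, Egfr, Fgfr1 and Fgfr3 rose by 1.49, 1.21 and 2.04, and the feedback inhibitor Lrig1, which targets EGF receptors, by 1.70. Fgfr3 had 788, 883 and 819 CPM in chromatin and 208, 183 and 214 in cytoplasm, with an adjusted p of 1.7e-09. The adaptor Grb2 and the phosphatase Ptpn11 fell by 2.12 and 1.76, as did the small GTPases Hras and Nras, by 2.53 and 1.87. Hras had 10.8, 10.1 and 9.85 CPM in chromatin and 52.2, 53.6 and 72.9 in cytoplasm. The kinases Braf and Araf rose by 1.99 and 1.83, while Map2k1 and Mapk3, the MEK and ERK kinases that follow them, fell by 1.12 and 1.59. Ras GTPase-activating proteins rose, Nf1 by 1.55 and Rasa1 by 1.09. Among the Sprouty-related inhibitors Spred3 rose by 2.30, and Spred1 and Spred2 fell by 1.78 and 1.97. The span counted for Fgfr2 covers other genes of its strand, Ctbp2 among them, and its log2 fold change was -0.36 on counts and 2.20 in log2(TPM + 1).

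Cell cycle genes were also on both sides. Of 47 mitosis genes 14 rose and 18 fell (median -0.47, and 0.57 in log2(TPM + 1)). The share that rose was near the 28.4% of all measured genes, of which 25.6% fell. Mki67, the proliferation antigen of the chromosome surface, had 769, 980 and 902 CPM in chromatin and 76.3, 73.7 and 47.1 in cytoplasm, a log2 fold change of 3.75 ± 0.20 (SE; adjusted p = 5.9e-15). Its nucleoplasm mean of 901 ± 197 CPM (SD, n = 3) was level with chromatin. Aspm, a spindle pole protein whose human counterpart is mutated in microcephaly, rose by 3.02 and the kinetochore motor Cenpe by 2.88, and their longest transcripts have 28 and 46 exons. Cks1b, a subunit of cyclin-dependent kinases with 3 exons, fell by 2.95, from 63.3, 79.5 and 92.4 CPM in cytoplasm to 11.4, 9.85 and 8.98 in chromatin. Ube2c, which marks cyclins for destruction, fell by 2.67, and Cdk1 and its cyclins Ccnb1 and Ccna2 by 1.56, 1.10 and 1.75. Top2a, with 336, 412 and 348 CPM against 409, 480 and 283, overlapped between the fractions, at -0.10 on counts and 1.38 in log2(TPM + 1). Of 40 DNA replication genes 2 rose and 15 fell (median -0.63), Pcna, the sliding clamp, by 2.60.

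Most ER, matrix and secreted protein genes were highest in neither of the compared fractions. Over 13513 measured genes the highest mean lay in chromatin for 41.1%, in the nucleoplasm for 21.0% and in the cytoplasm for 37.9%. It lay in the nucleoplasm for 37 of 41 matrix and secreted proteins, 30 of 37 ER chaperone and translocation genes and 16 of 34 Notch genes. The same was so for 10 of 12 ionotropic glutamate receptors, 5 of 5 GABA receptors, 9 of 26 voltage-gated channels, 30 of 75 respiratory chain genes and 12 of 39 progenitor markers. Summed CPM of the ER list was 3224 in chromatin, 18758 in the nucleoplasm and 5632 in the cytoplasm, and of the matrix list 8906, 38930 and 7501. Hsp90b1, the HSP90 of the ER, had 438, 378 and 380 CPM in chromatin, 173, 168 and 190 in cytoplasm and 2045 ± 177 in the nucleoplasm (SD, n = 3). Between chromatin and cytoplasm its log2 fold change was 1.17 ± 0.20, the only rise in an ER list with 18 falls among 37 (median -0.75, and 0.28 in log2(TPM + 1)). The small translocation and glycosylation subunits fell furthest, Ost4 by 4.09, Sec61b by 3.60 and Sec61g by 3.52. Calr, an ER lectin chaperone, had a log2 fold change of -1.05 ± 0.21 that lost its call without the second chromatin or the third cytoplasm library (-0.90 at the nearest to 0), and 0.28 in log2(TPM + 1). Of the 41 matrix and secreted genes 24 rose and 7 fell (median 1.48). Vcan, the proteoglycan versican, rose by 3.23 and Fn1, fibronectin, by 2.26. Cst3, the secreted protease inhibitor cystatin C, had 435, 326 and 250 CPM in chromatin and 1772, 1357 and 1714 in cytoplasm, and Timp2, an inhibitor of metalloproteases, fell by 2.35.

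Mitochondrial transcripts moved with the same fraction. They took 0.760%, 0.356% and 0.497% of counts in the chromatin libraries, 0.333%, 0.317% and 0.504% in the cytoplasm libraries and 10.0% ± 1.52 in the nucleoplasm (SD, n = 3). The chromatin and cytoplasm libraries overlapped, with an exact permutation p of 0.300. Of 7 mitochondrial mRNAs measured 1 was called, mt-Nd6, a complex I subunit, at 2.00 ± 0.36. mt-Co1, a subunit of cytochrome oxidase, had 3423, 1657 and 2246 CPM in chromatin and 1815, 1691 and 2810 in cytoplasm, a log2 fold change of 0.21 ± 0.22 (SE; adjusted p = 0.409). The ER, matrix and mitochondrial lists were thus all highest in the nucleoplasm, and the part of mitochondrial RNA, as a marker of organelles, in the levels of the other lists was not tested. Without mitochondrial genes the calls between chromatin and cytoplasm numbered 8882.

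**Figure D4:**
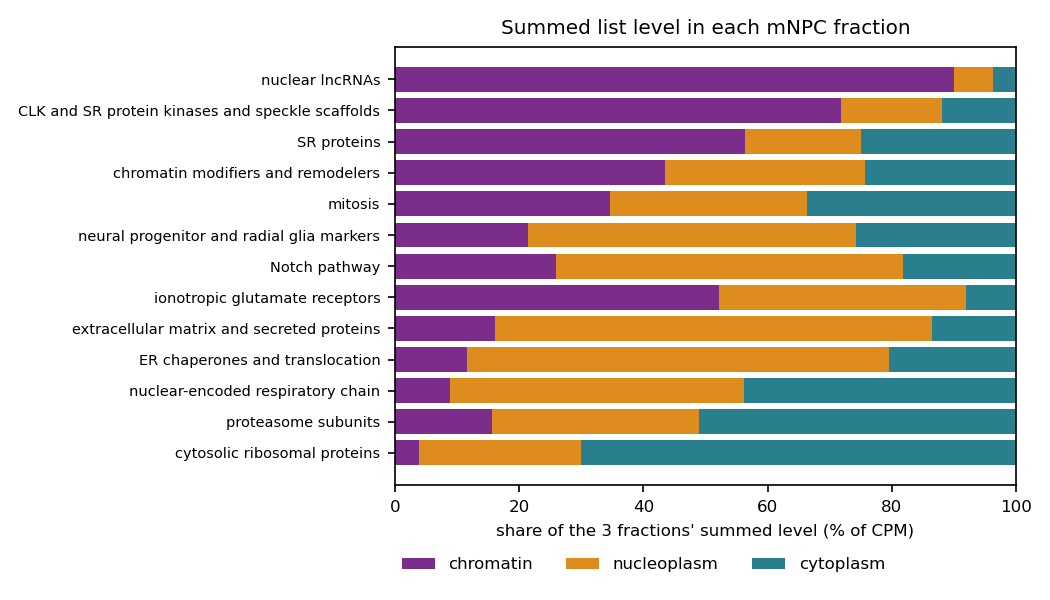
Summed level of 13 gene lists in mNPC chromatin (purple), nucleoplasm (orange) and cytoplasm (teal), as a share in percent of the sum of the 3 mean CPM values. Nuclear lncRNAs and CLK kinases lie mostly in chromatin, matrix and ER genes mostly in the nucleoplasm (38930 and 18758 CPM), and ribosomal proteins mostly in the cytoplasm (87694 CPM).

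Immediate early genes, which are induced within minutes by growth factors or handling, depended on the replicate. Egr1 had 54.6, 26.9 and 304 CPM in chromatin and 24.5, 19.4 and 448 in cytoplasm, so the third library of each fraction was far above the others. Its log2 fold change was -0.35 ± 0.89 (SE; adjusted p = 0.765), and it was 2.54 without the third cytoplasm library and -2.0 without the third chromatin library. Fos had 50.7, 42.5 and 102 CPM against 32.3, 23.3 and 61.2. Of 28 immediate early genes measured, 19 (67.9%) had their highest level in the third library of both fractions, against 1011 of 13513 measured genes (7.48%), a pattern noticed after the values were seen. Of the 28, 1 rose and 10 fell (median -0.42, and 0.28 in log2(TPM + 1)). Jund, an AP-1 subunit, fell by 2.35, with 29.3, 40.7 and 28.0 CPM in chromatin and 151, 159 and 190 in cytoplasm. The third cytoplasm library also had the smallest share of genes with over 20 exons and the largest share of ribosomal protein genes of its group. Among the genes named here it was the lowest cytoplasm library for Srrm2, Son, Atrx, Mki67, Zfc3h1 and Chd7.

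The shift of mNPC was compared with that of the other cell types by testing the difference of the chromatin-to-cytoplasm log2 fold changes. Against mESC, 1679 (12.4%) of measured genes had a larger value in mNPC and 2864 (21.2%) a smaller one, and against mCtx 1733 (12.8%) and 1276 (9.44%). Both differences use the same mNPC libraries, so they are not independent. The median difference over measured genes was -0.13 against mESC and 0.03 against mCtx. Calls of opposite direction with a called difference were made for 47 genes on the chromatin side in mNPC and the cytoplasm side in mESC and for 157 the other way round. Against mCtx these numbers were 85 and 22.

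As lists, CLK kinase and speckle scaffold genes and chromatin modifiers were shifted further to chromatin in mNPC than in mESC. The difference was called higher for 13 of 25 CLK kinase and speckle scaffold genes and lower for none, with list medians of 2.47 in mNPC, 1.10 in mESC and 2.33 in mCtx. It was called higher for 25 of 63 chromatin modifiers and lower for 1, with medians of 0.67, 0.12 and 0.88. Ribosomal protein genes were shifted further to the cytoplasm in mNPC, with 75 of 78 differences called lower against mESC and 41 against mCtx, and medians of -4.26, -2.69 and -3.31. Secretory and mitochondrial genes were less on the chromatin side in mNPC than in mESC. The difference was called lower for 33 of 37 ER genes, 18 of 41 matrix genes and 7 of 7 mitochondrial mRNAs, and the mitochondrial share was 0.614% in mESC chromatin and 0.0371% in mESC cytoplasm. Medians in mNPC, mESC and mCtx were -0.75, 0.64 and -0.76 for the ER list and 1.48, 2.22 and 1.04 for the matrix list. For mitochondrial mRNAs they were 0.17, 3.74 and -1.03. Against mCtx the difference was called higher for 1 ER gene, 6 matrix genes and 4 mitochondrial mRNAs and lower for 0, 5 and 0.

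Single genes differed between mNPC and mESC, and some changed sides. Reep3, an ER membrane protein that keeps ER from chromosomes in mitosis, had 89.3, 83.8 and 76.1 CPM in chromatin and 415, 403 and 439 in cytoplasm of mNPC, a log2 fold change of -2.33 ± 0.15. In mESC it had 43.4, 37.6 and 50.9 CPM in chromatin and 11.0, 7.06 and 8.50 in cytoplasm, a log2 fold change of 2.32 ± 0.16. The libraries were separate in both cell types and in opposite order, and the difference was -4.65 ± 0.22 (SE; adjusted p = 9.4e-14). Ddx4, a germ cell RNA helicase, had 12.2, 10.3 and 9.79 CPM in chromatin and 0.689, 0.551 and 0.745 in cytoplasm of mNPC, while the mESC libraries held 14.7 to 16.3 and 17.8 to 22.4 CPM. Its log2 fold change was 4.02 ± 0.23 in mNPC and -0.37 ± 0.17 in mESC, where it was not called. The difference was 4.39 ± 0.29 (SE; adjusted p = 9.2e-12). Dnmt3b, a de novo DNA methyltransferase, rose by 2.20 in mNPC from 3.44, 3.91 and 3.43 CPM in cytoplasm to 16.3, 16.8 and 16.7 in chromatin, and was at -1.02 ± 0.30 in mESC.

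Against mCtx, Mllt11, Napb and Kcna2 were on the chromatin side in mNPC and on the cytoplasm side in neurons. Mllt11 had 49.6, 46.8 and 46.0 CPM in chromatin and 21.6, 25.2 and 22.7 in cytoplasm of mNPC, and 136, 134 and 130 against 1178, 1200 and 1116 in mCtx. Its log2 fold change was 1.04 ± 0.20 in mNPC and -3.13 ± 0.21 in mCtx, a difference of 4.16 ± 0.29 (SE; adjusted p = 1.3e-10). Its call within mNPC was lost without the first cytoplasm library. Napb, a synaptic SNAP protein, had 1.98 ± 0.15 in mNPC and -1.70 ± 0.14 in mCtx, and the potassium channel Kcna2 1.68 ± 0.25 and -2.33 ± 0.35. Malat1 was on the chromatin side in both, but by 6.13 in mNPC and 2.17 in mCtx. Chromatin held 734 to 820 CPM in mCtx and 3723 to 5032 in mNPC. Cytoplasm held 150 to 200 CPM in mCtx and 58.3 to 62.8 in mNPC. On the other side, Orai3, a calcium channel of the plasma membrane, had -2.21 ± 0.21 in mNPC and 1.68 ± 0.21 in mCtx, and Anxa6, a membrane-binding annexin, -1.22 ± 0.12 and 2.09 ± 0.13.

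**Figure D5:**
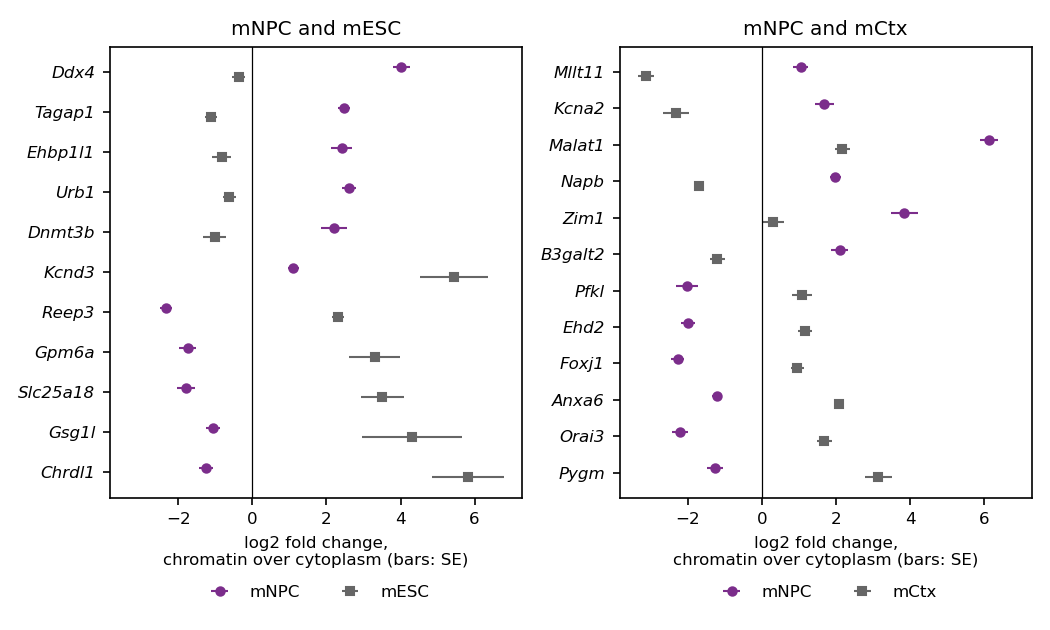
Log2 fold change of chromatin over cytoplasm with its SE in mNPC (purple circles) and, for the same genes, in mESC (left, grey squares) or mCtx (right, grey squares). The genes are from the 6 with the largest called difference in each direction that are also called in mNPC, and the values of mNPC and the other cell type lie on opposite sides of 0 for most of them, such as Reep3 at -2.33 and 2.32.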

How the data were processed

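RNA of 27 libraries (3 cell types, 3 fractions, 3 replicates each) was sequenced after oligo-dT capture. The authors deposited whole-number counts per gene and, separately, TPM per gene. The submitters' processing notes name STAR, featureCounts, kallisto 0.43.0 and mm10, and which step each served is not given in the sources used here. Deposited count gene lengths equalled the genomic span for 37332 of 37332 genes, so introns were counted. Symbols, biotypes and exon numbers come from a GENCODE mouse annotation, matched by gene ID for 35449 of these genes. Counts followed strand, since of genes lying inside a longer one 0 of 801 on the same strand, against 170 of 583 on the opposite strand, exceeded the outer gene.

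The counts were fitted in R 4.3.3 with edgeR 4.0.16 (filterByExpr, 18226 genes, TMM, 9 group means, 18 residual degrees of freedom, quasi-likelihood F test, Benjamini-Hochberg adjustment over all genes tested). A gene was called at an adjusted p under 0.05 and a log2 fold change of at least 1 in size. SE is the log2 fold change divided by the square root of F. Differences between cell types were contrasts of the same fit. Deposited TPM were tested as log2(TPM + 1) with limma 3.58.1, and DESeq2 1.42.0 was an alternative. The procedure was also run on simulated data in which few genes changed, as many up as down. That setting differs from these data, so it cannot show how the scaling behaves here. Shares of counts were compared by two-sided exact permutation tests, which for 3 against 3 cannot go below 0.1. P-values and SE of the fits rest on a spread estimated over the triplicates of all 9 groups, not of mNPC alone. The permutation tests use the mNPC chromatin and cytoplasm libraries only. The mNPC triplicates are of 1 line.

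Rise, fall and their forms are used of called genes. The genes named are the 15 largest called changes in each direction with a mean of at least 10 CPM in the higher group, separate libraries, a span of at least 200 bases, no same-strand overlap and a symbol that is not Gm with a number, a Rik name or a pseudogene, the 6 largest differences from each other cell type in each direction, and for each list the 3 highest in level and the largest rise and fall. Other list members are named by their role and were chosen after their values were seen. The comparison, its lists and the minimum of 1 CPM were chosen with earlier results of these data known. Promoter sequences are from RefSeq (GRCm38.p6). A few genes that these rules name are not reported here. In total 11 alternatives were planned and run.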

Additional observations from a re-analysis of the deposited data

Results flagged for a closer look

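The genes below differed between cell types in their chromatin-to-cytoplasm log2 fold change, by the test of the difference itself in edgeR with Benjamini-Hochberg adjustment. Each was picked as among the 6 largest differences in its direction, so the sizes are the extremes of many. No difference lost its call when any 1 library was left out.

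Against mESC, the differences toward chromatin in mNPC were 4.39 ± 0.29 (SE) for Ddx4, 3.60 ± 0.23 for Tagap1, 3.25 ± 0.39 for Ehbp1l1, 3.23 ± 0.25 for Urb1 and 3.22 ± 0.46 for Dnmt3b. In these 5 genes the log2 fold change was between 2.20 and 4.02 in mNPC and between -1.12 and -0.37 in mESC. Urb1, a ribosome biogenesis protein, had 54.1, 56.6 and 52.0 CPM in chromatin and 10.8, 9.58 and 5.89 in cytoplasm of mNPC.

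The differences toward the cytoplasm were -7.06 ± 0.92 for Chrdl1, -5.38 ± 1.32 for Gsg1l, -5.30 ± 0.60 for Slc25a18, -5.04 ± 0.68 for Gpm6a, -4.65 ± 0.22 for Reep3 and -4.33 ± 1.02 for Kcnd3. Except for Reep3, these rest on few mESC counts. Chrdl1 had 26 counts in the 3 mESC chromatin libraries and 0 in cytoplasm, Gsg1l 9 and 0, Kcnd3 20 and 0, Gpm6a 59 and 4 and Slc25a18 115 and 7. A fitted fold against 0 counts depends on the prior count and is no bound. On the scale of log2(TPM + 1) the difference of Kcnd3 was 1.95, and those of Chrdl1 and Gsg1l were -0.82 and -0.64.

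Against mCtx, the differences toward chromatin were 4.16 ± 0.29 for Mllt11, 4.01 ± 0.43 for Kcna2, 3.97 ± 0.30 for Malat1, 3.68 ± 0.21 for Napb, 3.54 ± 0.46 for Zim1 and 3.31 ± 0.30 for B3galt2. Those toward the cytoplasm were -4.42 ± 0.42 for Pygm, with 134 mCtx chromatin counts and 14 in cytoplasm, -3.89 ± 0.30 for Orai3, -3.31 ± 0.18 for Anxa6, -3.23 ± 0.24 for Foxj1, -3.16 ± 0.26 for Ehd2 and -3.12 ± 0.40 for Pfkl. Foxj1, the master regulator of motile cilia, had 16.0, 15.4 and 13.8 CPM in chromatin and 73.3, 66.2 and 79.5 in cytoplasm of mNPC. Pfkl, a phosphofructokinase, fell by 2.03 on the log2 scale in mNPC on counts, while its chromatin-to-cytoplasm value there was 0.29 in log2(TPM + 1), and the difference from mCtx was -2.14 on that scale.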

How the results depend on the processing

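The count of calls between mNPC chromatin and cytoplasm stayed between 8102 and 9375 under every alternative on counts, and between 8740 and 8931 when any 1 library was left out (4891 to 5094 higher, 3788 to 3923 lower). Leaving out 1 library gave 4724 to 5400 differences from mESC (1446 to 2098 higher, 3031 to 3782 lower) and 3237 to 3427 from mCtx (1780 to 2049 higher, 1278 to 1647 lower). With library totals the split of differences from mESC was 1295 higher and 3930 lower, against 1878 and 3226. In log2(TPM + 1) 10023 genes were called higher and 2076 lower in mNPC chromatin, 3249 differences from mESC were higher, and 5417 from mCtx were called, 3272 higher and 2145 lower. TPM measures other features, 24419 genes were tested there, and the cause was not tested. Of 3630 measured genes called higher on counts with a TPM value, 3314 were also called higher in log2(TPM + 1) and 29 had the opposite sign. Of 3347 called lower, only 1724 were also called lower and 260 had the opposite sign. Among the single genes followed through the settings, the sign was reversed for Pfkl (0.29), Smarcc1 (0.16), Calr (0.28), Fgfr2 (2.20) and Hes5 (0.10). The same was so for Top2a (1.38), Nanog (1.12), Pecam1 (-0.21) and the difference of Kcnd3 from mESC (1.95). Egr1, which was highest in the third library of each fraction, was 2.54 without that of cytoplasm and -2.0 without that of chromatin.

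From summed TPM the ratio of chromatin to cytoplasm shares was 0.107 for ribosomal protein genes, 2.39 for mitochondrial genes, 3.64 for long noncoding RNA genes (2.65 from counts without Xist and Malat1, chosen after seeing the data), 162 for Xist and Malat1, 4.24 for genes with over 20 exons and 0.718 for those with 1 to 3. Leaving out 1 library gave 0.0627 to 0.0729 for ribosomal protein genes, 0.241 to 0.264 for respiratory chain genes, 1.11 to 1.65 for mitochondrial genes, 5.03 to 5.25 for long noncoding RNA genes, 89.7 to 101 for Xist and Malat1, 2.24 to 2.61 for over 20 exons and 0.608 to 0.633 for 1 to 3. With the replicate number as a block within each cell type, 9031 genes were called (5113 higher, 3918 lower), 5456 differences from mESC and 3836 from mCtx. In mNPC the deviations of same-numbered libraries correlated at 0.13, 0.42 and -0.03, so the mNPC numbers did not meet the minimum of 0.1 in every pair, although 19 of 28 immediate early genes were highest in replicate 3 of both fractions. The same correlations were 0.73, 0.45 and 0.66 in mESC and 0.43, 0.45 and 0.28 in mCtx. Depth limits the differences that rest on under 30 counts in mESC, those of Chrdl1, Gsg1l and Kcnd3.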

Other observations

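Further noncoding RNAs could be analysed in the TPM table alone. Of 15 from the list of nuclear noncoding RNAs, 10 were called higher in mNPC chromatin and none lower, where 41.0% of all genes tested in TPM were called higher and 8.50% lower. Miat, a noncoding RNA of neural progenitors and retina, had 584, 400 and 472 TPM in chromatin and 16.5, 9.37 and 11.8 in cytoplasm, a difference of 5.18 ± 0.17 on the log2(TPM + 1) scale (SE; limma adjusted p = 4.3e-16). The libraries did not overlap. Snhg14, the long transcript of the imprinted Snrpn region, had 124, 160 and 131 TPM against 4.80, 3.94 and 3.41, a difference of 4.79 ± 0.24. Dleu2, a host of miRNAs, differed by 3.58 ± 0.20, and Mir9-3hg, which holds a miR-9 precursor, had 277, 306 and 305 TPM in chromatin and 47.0, 50.2 and 46.5 in cytoplasm. Norad, listed as 2900097C17Rik and known as a cytoplasmic RNA that binds Pumilio proteins, had 104, 123 and 105 TPM against 119, 126 and 109, and its difference of -0.10 ± 0.12 was not called. Among snoRNA hosts Snhg5 was higher in chromatin by 1.98 and Snhg6 and Snhg8 lower, at -1.37 and -1.03. These RNAs were named after their values were seen.

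Antisense and lincRNA genes had lower medians in the neurons. The median log2 fold change of 188 antisense genes was 1.57 in mNPC, 2.05 in mESC and 0.20 in mCtx, and that of 96 lincRNA genes was 1.69, 2.18 and 0.29. The genes were chosen by their level in mNPC, and the difference of these medians was not tested.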
